A study of Mus musculus with 12 samples.

Results

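Imprinted genes outside the Dlk1-Dio3 domain were described in mouse pluripotent cells through a list of 41 genes, taken by gene symbol from the deposited array table. Of these, 40 were measured, each by 1 of the 25206 probe sets. Zrsr1 was not matched and was not analysed here, and Nespas was matched as a synonym because the gene table lists it under the symbol Gnasas1. Of the measured members, 18 are known as maternally expressed and 22 as paternally expressed. Imprinting of 11 of the maternally expressed members, among them Ube3a, Grb10, Gnas and Cd81, and of 1 paternally expressed member, Inpp5f, is known to be restricted to certain isoforms or tissues.

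The cells were of 2 types, embryonic stem cells (ESC) and, made by reprogramming somatic cells, induced pluripotent stem cells (iPSC), all from female C57BL/6 mice. All were grown without serum or feeder cells in 2iLIF, a medium that holds the cytokine LIF and inhibitors of the kinases MEK and GSK3. Live cells were stained with the dye TMRM, which gathers in mitochondria according to their membrane potential, and the sorter parted cells of low from cells of high potential. That made 4 groups of 3 arrays, low and high ESC and low and high iPSC, numbered 2, 3 and 4 in the sample titles. The labels name neither the lines, nor the somatic cell behind the iPSC, nor whether arrays came from separate cultures, so p-values measure the spread between these 12 arrays, which may be technical.

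An imprinted gene is transcribed mainly from the copy inherited from one parent. The choice is set by DNA methylation laid down in the egg or sperm at imprinting control regions, and after fertilisation it is kept by the maintenance methyltransferase DNMT1 and by ZFP57, which binds the methylated motif TGCCGC and recruits TRIM28. Many imprinted genes act on growth: Igf2, Peg3 and Plagl1 belong to the paternally expressed group, and H19, Igf2r, Grb10, Cdkn1c and Phlda2, which restrain growth, to the maternally expressed group. Mouse pluripotent cells are known to differ between lines and cultures in how well they keep these marks. The array sums both alleles, so a level does not show which copy was transcribed.

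The promoter sequences of 4 members called between the numbered ESC arrays, and of Peg3, called between fractions with paired arrays, are shown because the results turn on these genes. They were chosen after their values were seen. Each runs 5′ to 3′ on the gene's strand from 250 bases before to 50 after the start, from RefSeq, build GRCm38.p6. TGCCGC, read on either strand (GCGGCA on the other), is in capitals.
Plagl1: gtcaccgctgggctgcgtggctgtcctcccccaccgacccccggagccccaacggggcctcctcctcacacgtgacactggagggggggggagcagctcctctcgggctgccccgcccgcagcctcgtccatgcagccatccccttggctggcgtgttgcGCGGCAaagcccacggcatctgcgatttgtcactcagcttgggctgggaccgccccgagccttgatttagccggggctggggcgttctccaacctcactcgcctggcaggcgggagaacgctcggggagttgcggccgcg
Grb10: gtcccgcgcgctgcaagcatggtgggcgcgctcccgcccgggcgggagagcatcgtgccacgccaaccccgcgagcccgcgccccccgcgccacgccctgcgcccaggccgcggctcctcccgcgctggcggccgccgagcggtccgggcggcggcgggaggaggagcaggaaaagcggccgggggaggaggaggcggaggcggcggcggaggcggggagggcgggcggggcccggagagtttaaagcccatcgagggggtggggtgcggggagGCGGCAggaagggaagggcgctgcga
Phlda2: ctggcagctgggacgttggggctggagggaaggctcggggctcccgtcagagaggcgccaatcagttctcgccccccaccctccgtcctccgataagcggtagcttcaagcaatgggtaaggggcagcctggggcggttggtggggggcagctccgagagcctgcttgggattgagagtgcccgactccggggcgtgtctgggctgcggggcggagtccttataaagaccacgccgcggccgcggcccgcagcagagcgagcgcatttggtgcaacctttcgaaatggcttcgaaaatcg
Slc38a4: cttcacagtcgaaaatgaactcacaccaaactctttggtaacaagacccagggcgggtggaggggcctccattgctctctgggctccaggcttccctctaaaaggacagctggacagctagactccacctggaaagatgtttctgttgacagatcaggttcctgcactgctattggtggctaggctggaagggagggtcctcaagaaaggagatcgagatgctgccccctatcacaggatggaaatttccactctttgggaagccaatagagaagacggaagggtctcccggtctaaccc
Peg3: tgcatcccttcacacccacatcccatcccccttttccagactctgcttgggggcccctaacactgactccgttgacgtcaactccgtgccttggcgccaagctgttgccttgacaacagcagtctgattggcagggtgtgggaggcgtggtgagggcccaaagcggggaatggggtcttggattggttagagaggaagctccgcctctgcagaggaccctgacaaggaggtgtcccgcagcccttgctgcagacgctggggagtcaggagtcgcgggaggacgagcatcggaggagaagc

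The Plagl1 window lies at chr10:13090582-13090881 on the plus strand, and holds 26 CpG dinucleotides and 1 motif. The Grb10 window, at chr11:12037371-12037670 on the minus strand, held the most CpG of the printed windows, 45, and 1 motif. The Phlda2 window, at chr7:143502475-143502774 on the minus strand, has 26 CpG and no match. The Slc38a4 window, at chr15:97055907-97056206 on the minus strand, is CpG-poor, with 5. The Peg3 window, at chr7:6730370-6730669 on the minus strand, has 13 CpG and overlaps the start of Usp29, which runs the other way from chr7:6730333-6730632. Grb10 has 2 windows in the table and Slc38a4 has 3, and 1 of each is shown. The window shown was picked as that with the most matches and then the most CpG. The other Grb10 window, at chr11:12027922-12028221, has 9 CpG and no match.

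RefSeq windows were found for 32 members, 49 windows in all. TGCCGC on either strand stood in 12 of the 49 windows (24.5%), against 3813 of 32851 windows of the same length in the whole table (11.6%). By gene, 11 of 32 members (34.4%) had the motif in at least 1 window, against 13.1% of all genes. The match was in 3 of 20 maternal windows and 9 of 29 paternal windows. The median window of a member held 17 CpG, against 7 over the table. Members had 49 windows for 32 genes, against 32851 for 27025. The shares were not adjusted for CpG content or for windows per gene. Among the 12 are overlapping Mest windows, at chr6:30737800-30738099 and chr6:30737803-30738102. These are descriptions of letters: a match is not a bound site. Cdkn1c, Dcn, H19, Impact, Kcnq1, Nespas, Peg10 and Sgce have no window shown.

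The arrays were alike overall. Pearson correlations over all probe sets were 0.991 to 0.994 within groups and 0.986 to 0.994 between groups. The 10 pluripotency markers (Pou5f1, Nanog and others) were all above the overall median of 3.56, and no pluripotency, fibroblast, trophoblast, extraembryonic endoderm or neural marker was called between cell types or fractions. The low and high arrays of equal number moved together within a cell type. After group means were taken off, their correlations were 0.107 to 0.341 in all 6 pairs, against -0.226 to 0.003 for unequal numbers. Taking off means of 3 arrays itself pushes unequal numbers below 0 where equal ones lie above. Arrays that shared neither cell type nor number ran from -0.1575 to 0.1673. That upper end is above the iPSC pairs of number 2 (0.1073) and number 3 (0.127). ESC number 2 stood apart most, as shown further on. In bulk RNA, fewer cells making a transcript and less of it per cell cannot be told apart.

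The members spanned the full range of levels on the log2 scale of the table. Of the 40, 12 had a mean level above the upper quartile of all values (5.99), 17 lay between the median and the upper quartile, 9 between the lower quartile (2.147) and the median, and 2 below the lower quartile. The table carries no detection calls, so a low level cannot be told from background. Levels are given to place each gene, not to rank genes against each other, since probes differ in brightness.

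Among maternally expressed members, Cd81, a tetraspanin of the cell surface, averaged 10.4, Igf2r, the receptor that takes up and degrades IGF2, 7.42, and Ube3a, a ubiquitin ligase, 7.41. H19, the noncoding RNA beside Igf2, averaged 2.98, and Kcnq1, a potassium channel, 2.59. Dcn, a matrix proteoglycan, averaged 1.88, below the lower quartile.

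Among paternally expressed members, Mest, a hydrolase-like protein of mesoderm, averaged 9.77 and ranged over the 12 arrays from 9.52 to 10.01. Impact, a regulator of the stress kinase GCN2, averaged 8.81, and Slc38a4, an amino acid transporter, 8.02. The zinc finger genes Plagl1 and Peg3 both averaged near 7.40, at 7.41 and 7.40. Kcnq1ot1, the noncoding RNA that silences the Kcnq1 domain on the paternal copy, averaged 6.74, while Airn, which plays that part at Igf2r, averaged 2.55. Igf2, the growth factor, was at 3.45, and Snrpn, a splicing protein gene, at 3.28. Probe positions and strand were not given in the sources used here, so values of overlapping partners (Kcnq1 and Kcnq1ot1, Igf2r and Airn, Gnas and Nespas, H13 and Mcts2, Nnat and Blcap) are uncertain as to the transcript.

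The comparison of iPSC with ESC asked whether reprogrammed cells carried the same levels of imprinted transcripts. No member passed an adjusted p of 0.05 over both fractions in limma, against 724 of 25206 probe sets (2.87%). At an unadjusted p under 0.05 there were 8 of 40 members, against 14.7% of all probe sets. Within the low fraction 0 members passed, against 0.397% of probe sets, and 4 had an unadjusted p under 0.05, against 11.2%. Within the high fraction 0 passed, against 0.186%, and 2 had an unadjusted p under 0.05, against 9.52%. The median difference was 0.05 for maternally expressed members, 0.03 for paternally expressed members and 0.01 over all probe sets.

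**Figure D1:**
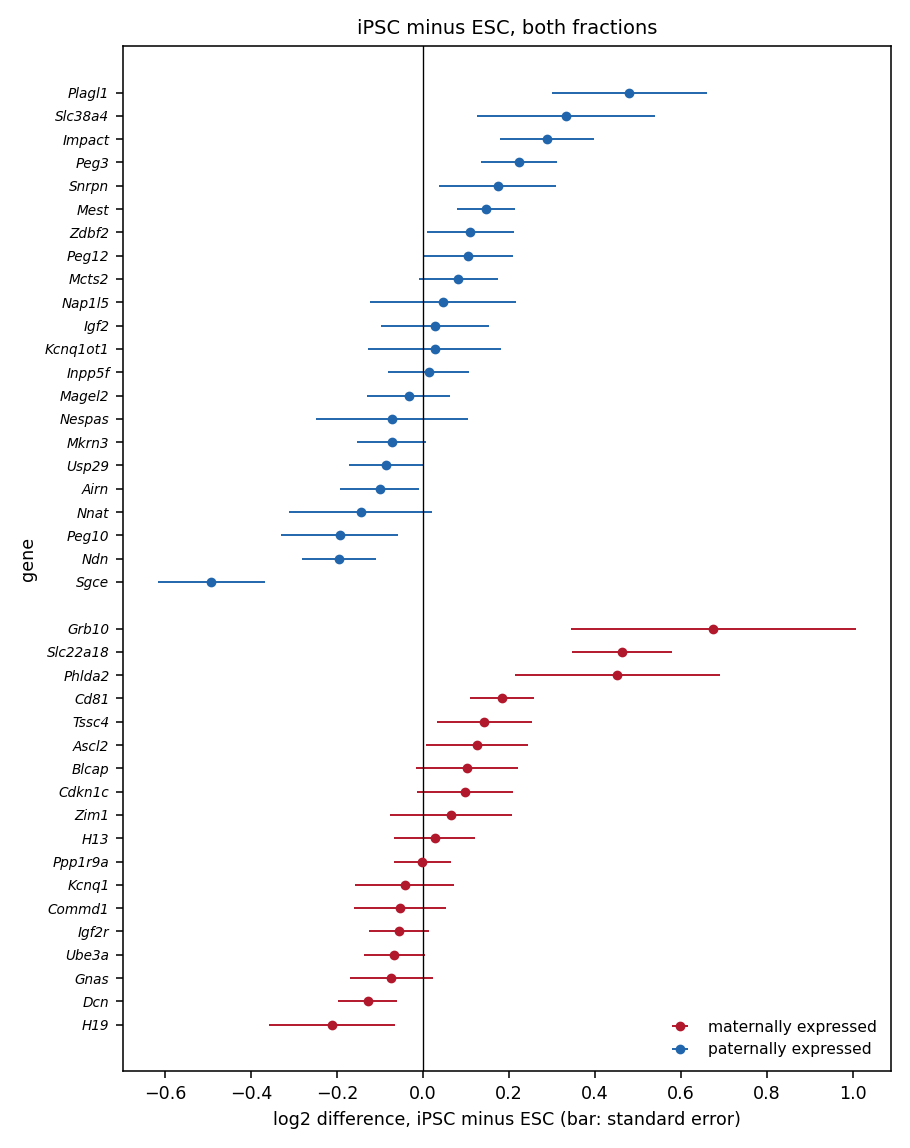
Log2 difference iPSC minus ESC over both fractions for the 40 measured members (horizontal axis, log2 units; points are fitted differences, bars 1 standard error, 6 arrays against 6), with paternally expressed genes above and maternally expressed genes below. Most points lie near 0, and Grb10 (0.68) and Sgce (-0.49) are the ends of the range.

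The members nearest the threshold lie in different domains. Slc22a18, a maternally expressed transporter of the Kcnq1 domain, was at 4.02, 4.14 and 4.08 in ESC low and 4.11, 3.90 and 4.06 in ESC high. Its iPSC values were 4.33, 4.47 and 4.99 in the low fraction and 4.63, 4.14 and 4.53 in the high. Every iPSC array stood above every ESC array, though the closest arrays, both at 4.14, differed only in the third decimal. The difference was 0.46 ± 0.12 (SE, limma adjusted p = 0.0542). Slc22a18 was the only member whose arrays did not overlap in this direction, 1 of 40, against 1% of all probe sets. No member had all iPSC arrays below all ESC arrays, against 1.75% of probe sets.

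Sgce, a paternally expressed sarcoglycan, differed the other way. It was at 4.89, 4.30 and 4.73 in ESC low, 4.83, 4.14 and 4.52 in ESC high, 4.03, 4.29 and 4.29 in iPSC low and 3.99, 3.93 and 3.93 in iPSC high. Only the high array of ESC number 3 lay within the iPSC range. The low array of number 3, at 4.2988, was just above the highest iPSC array, at 4.2935, and the other ESC arrays stood further above. The difference was -0.49 ± 0.12 (SE, limma adjusted p = 0.0547). Without the 2 arrays of ESC number 3 it was -0.67 ± 0.09 with an adjusted p of 0.00906. That exclusion took out the ESC number nearest the iPSC values. Without ESC number 2 or number 4 Sgce did not pass, nor with 1 mean per number and cell type (limma adjusted p = 0.231). Its neighbour Peg10, a retrotransposon-derived gene that shares a control region with it, had a difference of -0.19 ± 0.14 (adjusted p = 0.585).

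The largest difference was that of Grb10, an adaptor that dampens insulin signalling, 0.68 ± 0.33 (adjusted p = 0.381). Plagl1 differed by 0.48 ± 0.18 (adjusted p = 0.216) and Phlda2, which limits placental growth, by 0.45 ± 0.24 (adjusted p = 0.425). These estimates depended on which ESC number entered. Without ESC number 2 the Phlda2 difference was 0.84 ± 0.12 (adjusted p = 0.00815). Without ESC number 3 it was 0.26 ± 0.25 (adjusted p = 0.748). For Grb10 the same fits gave 1.09 ± 0.27 (adjusted p = 0.0664) and 0.27 ± 0.28 (adjusted p = 0.769). For Plagl1 they gave 0.60 ± 0.20 (adjusted p = 0.18) and 0.20 ± 0.11 (adjusted p = 0.468). Impact, 0.29 ± 0.11 with all arrays (adjusted p = 0.224), was at 0.43 ± 0.09 without ESC number 2 (adjusted p = 0.0345). Number 2 was the ESC number nearest the iPSC values for Impact. Without ESC number 3 or number 4 Impact did not pass.

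The other members of the large domains gave small differences. In the Igf2-H19 domain H19 differed by -0.21 ± 0.15 (adjusted p = 0.579) and Igf2 by 0.03 ± 0.13 (adjusted p = 0.954). In the Kcnq1 domain the cell cycle inhibitor Cdkn1c was at 0.10 ± 0.11 and Kcnq1ot1 at 0.03 ± 0.15. Igf2r gave -0.06 ± 0.07 and Airn -0.10 ± 0.09. The paternally expressed genes of the Snrpn domain ran from -0.20 for Ndn, a growth suppressor of neurons, to 0.17 for Snrpn, and Ube3a of the same domain was at -0.07. In the Gnas domain Gnas, the stimulatory G protein subunit, and the antisense RNA Nespas were both at -0.07.

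Of the other members with an unadjusted p under 0.05, Peg3 was at 0.22 ± 0.09 in iPSC minus ESC (adjusted p = 0.248), Cd81 at 0.18 ± 0.07 (adjusted p = 0.264) and Mest at 0.15 ± 0.07 (adjusted p = 0.331). Ndn, named above, was also among them, at -0.20 ± 0.09 (limma adjusted p = 0.313). Slc38a4 was at 0.33 ± 0.21 (adjusted p = 0.52), Dcn at -0.13 ± 0.07 (adjusted p = 0.429) and Ppp1r9a at -0.001 ± 0.07 (adjusted p = 0.997). Further members lay on both sides of 0. In the Kcnq1 domain, Ascl2, a trophoblast transcription factor, was at 0.13 ± 0.12, and Tssc4, a splicing-related gene, at 0.14 ± 0.11. In the Snrpn domain, Peg12, a GSK3-binding protein gene, was at 0.11 ± 0.10, and Magel2, a regulator of protein trafficking, at -0.03 ± 0.10. The gene pairs in which a paternal retrogene or short gene sits within a host gene gave no common sign. Nnat, a membrane protein of neurons, was at -0.14 ± 0.17 and its host Blcap at 0.10 ± 0.12. Mcts2, a retrogene of translation, was at 0.08 ± 0.09 and its host H13 at 0.03 ± 0.09. Commd1, a copper-handling protein gene that hosts Zrsr1, was at -0.05 ± 0.11. Of the single genes, Zdbf2 was at 0.11 ± 0.10, the retrogene Nap1l5 at 0.05 ± 0.17 and Inpp5f, a phosphoinositide phosphatase, at 0.01 ± 0.09.

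The comparison of high with low membrane potential asked whether imprinted transcripts differ between sorted fractions of the same cells. In ESC no member passed in limma, against 0.357% of probe sets, and 3 of 40 had an unadjusted p under 0.05, against 8.29%. In iPSC no member passed, against 0.547%, and 6 had an unadjusted p under 0.05, against 12.7%. Over both cell types no member passed, against 631 probe sets (2.5%), and 8 had an unadjusted p under 0.05, against 15.6%. With the numbered pairs as a block, 2 members passed over both cell types, Peg3 and Nespas, both paternally expressed and both lower in the high fraction, against 3.73% of probe sets called and 1.65% called lower.

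Peg3, a zinc finger protein of growth and maternal behaviour, was at 7.47, 7.56 and 7.31 in ESC low and 7.04, 7.26 and 7.11 in ESC high. The iPSC values were 7.51, 7.84 and 7.78 in iPSC low and 7.11, 7.37 and 7.47 in iPSC high. The fractions did not overlap within either cell type. The difference high minus low was -0.35 ± 0.09 (SE, limma adjusted p = 0.0597), and -0.35 ± 0.06 with the pairs as a block (adjusted p = 0.0225). It was -0.31 in ESC and -0.39 in iPSC. Of its neighbours, Usp29, a deubiquitinase gene that starts beside Peg3, was at -0.21 ± 0.09 (adjusted p = 0.248), and the maternally expressed Zim1 at 0.32 ± 0.14 (adjusted p = 0.299). The mean level of Usp29 was 1.62, below the lower quartile, and cannot be told from background.

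Nespas, the paternal antisense RNA of the Gnas domain, was at 5.85, 5.77 and 6.31 in ESC low and 5.21, 5.25 and 5.98 in ESC high. The iPSC values were 5.91, 6.05 and 6.27 in iPSC low and 5.73, 5.18 and 4.78 in iPSC high. The high array was below the low array in each pair, by 0.17 to 1.49 in size. The ESC fractions overlapped through number 4, and the iPSC fractions did not overlap. The difference was -0.67 ± 0.18 (limma adjusted p = 0.0715), and with the pairs as a block -0.67 ± 0.15 (adjusted p = 0.0471).

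Ppp1r9a, neurabin, an actin-binding scaffold near Sgce, was the member with the lowest p among those above 0. It was at 6.69, 6.69 and 6.51 in ESC low and 6.89, 6.87 and 6.89 in ESC high, and at 6.56, 6.73 and 6.56 in iPSC low and 6.95, 6.77 and 6.96 in iPSC high. The high arrays were above all low arrays within each cell type, by a narrow margin in iPSC. The difference was 0.26 ± 0.07 (limma adjusted p = 0.0611; with the block 0.0947).

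**Figure D2:**
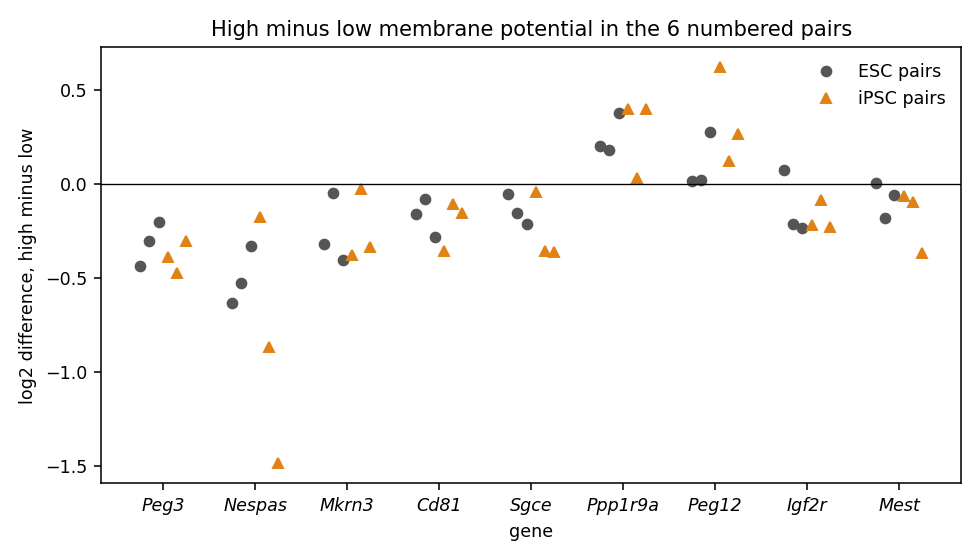
Log2 difference high minus low membrane potential in each of the 6 numbered pairs (vertical axis, log2 units; circles are the 3 ESC pairs and triangles the 3 iPSC pairs, each in the order of numbers 2, 3 and 4) for 9 members. All pairs of Peg3, Nespas, Mkrn3, Cd81 and Sgce lie below 0, all pairs of Ppp1r9a and Peg12 lie above 0, and Igf2r and Mest are mixed.

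The sign was the same in all 6 pairs for 7 members. High was below low in each pair for Cd81, Mkrn3, Nespas, Peg3 and Sgce, 5 of 40 (12.5%), against 7.01% of all probe sets. High was above low in each pair for Peg12 and Ppp1r9a, 2 of 40 (5%), against 5.65%. Mkrn3, a ring finger gene of the Snrpn domain, differed by -0.25 ± 0.08 (adjusted p = 0.139), and Cd81 by -0.19 ± 0.07 (adjusted p = 0.239).

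Maternally and paternally expressed members were compared by their medians. In iPSC the median of high minus low was -0.16 for the 22 paternally expressed members, of which 16 were below 0, and -0.04 for the 18 maternally expressed members, of which 9 were below 0. The median over all probe sets was 0.003, with 49.2% below 0. In ESC the medians were -0.05 and -0.04, and -0.004 over all probe sets. Centring each array on its median moved the median of all probe sets in iPSC to -0.06, and then 20 of the 22 paternally expressed members, 12 of the 18 maternally expressed members and 62.3% of all probe sets lay below 0. Members of 1 domain share control regions and are not independent, and no test of these medians was made.

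No member passed in the limma test of whether the effect of the fraction differed between the cell types. At an unadjusted p under 0.05 there were 2 of 40 members, against 4.36% of probe sets, and 0% of probe sets passed the adjusted threshold. The 2 were Dcn, with a difference of effects (iPSC minus ESC) of 0.35, and Zim1, with 0.67. In H13 and Zdbf2, 2 of 40 (5%), high minus low had one sign in all ESC pairs and the other sign in all iPSC pairs, against 2.64% of probe sets.

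Several members differed between ESC arrays of different number. A moderated F test of the number within ESC, with the low and the high array as the 2 arrays of each number, called 5 of 40 members (12.5%), against 302 of 25206 probe sets (1.2%). They were Plagl1, Phlda2, Grb10, Peg10 and Slc38a4, of which 2 are maternally and 3 paternally expressed. At an unadjusted p under 0.05 there were 14 of 40 (35%), against 14.3% of probe sets. This test was added after arrays of equal number were seen to move together, and the labels do not say what a number stands for, so that reading the low and high array of 1 number as a pair was inferred from the same arrays.

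**Figure D3:**
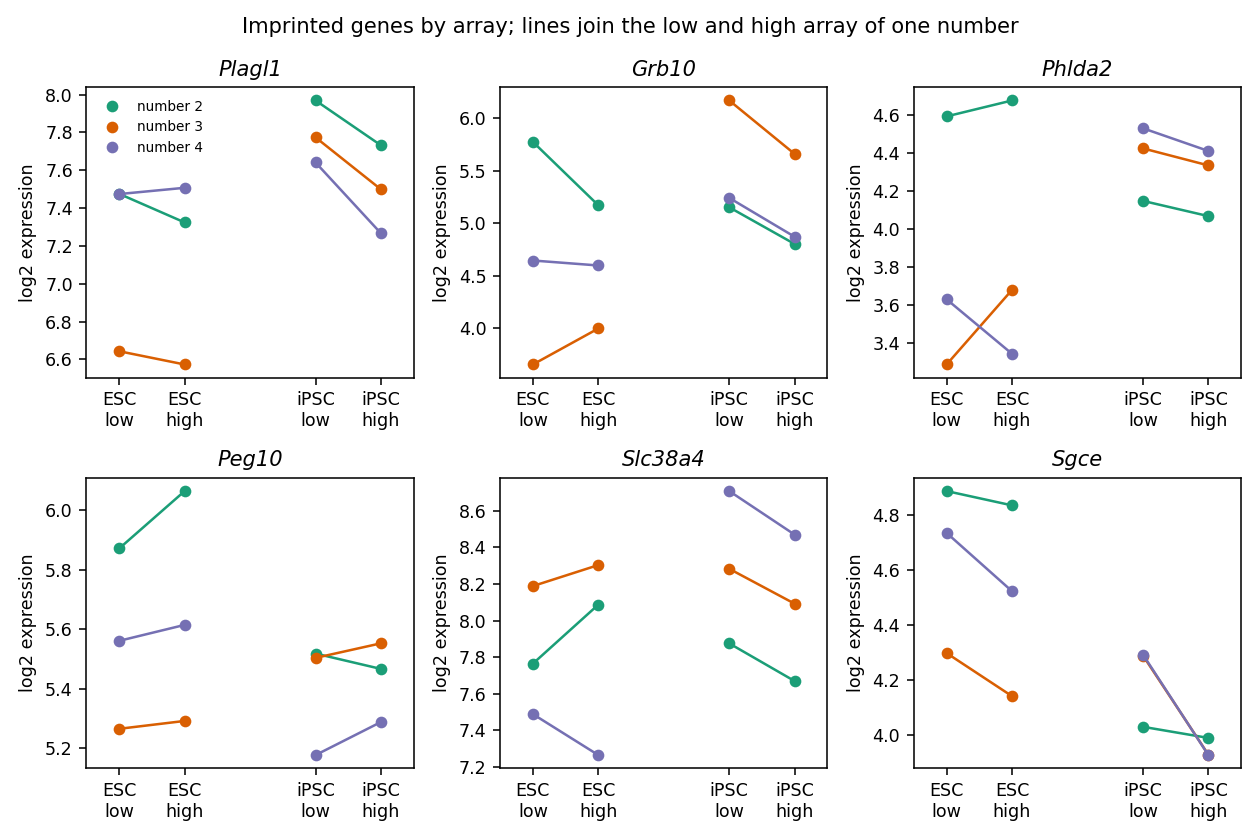
Log2 expression (vertical axes, different ranges) of 6 members in each of the 12 arrays, with lines that join the low and the high array of 1 number within a cell type. ESC number 3 is lowest in Plagl1, Grb10, Peg10 and Sgce in both fractions, and ESC number 2 is highest in Phlda2 in both.

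Plagl1, which drives a network of growth genes, was at 6.64 and 6.57 in the low and high array of ESC number 3. The other ESC arrays were at 7.48 and 7.32 (number 2) and 7.47 and 7.51 (number 4), and the iPSC arrays ran from 7.27 to 7.97. Only ESC number 3 stood low. Its mean was 0.88 below the highest number, a 1.84-fold span (adjusted p = 0.0157), while the low and high arrays of 1 number differed by at most 0.15.

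Grb10 was at 3.65 and 3.997 in ESC number 3, at 4.64 and 4.60 in number 4 and at 5.77 and 5.17 in number 2. The 3 numbers did not overlap. The span was 1.65, or 3.13-fold (adjusted p = 0.0196). In iPSC the order was another one, with 6.17 and 5.66 in number 3, 5.24 and 4.87 in number 4 and 5.15 and 4.80 in number 2, a span of 0.94 (adjusted p = 0.294). Number 3 was thus the lowest in ESC and the highest in iPSC.

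Phlda2 was at 4.59 and 4.68 in ESC number 2, against 3.29 and 3.68 in number 3 and 3.63 and 3.34 in number 4. Only number 2 stood high, and it lay above the iPSC range of 4.07 to 4.53. The span was 1.15, or 2.22-fold (adjusted p = 0.0185).

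Peg10 was at 5.87 and 6.06 in ESC number 2, 5.56 and 5.61 in number 4 and 5.27 and 5.29 in number 3, a span of 0.69 (adjusted p = 0.0452). The order matched that of its neighbour Sgce, whose span was 0.64 (adjusted p = 0.0826). Slc38a4 had a different order: it was lowest in ESC number 4, at 7.49 and 7.27, and highest in number 3, at 8.19 and 8.30, a span of 0.87 (adjusted p = 0.0493). In iPSC its span was nearly as wide, 0.82, with number 2 lowest and number 4 highest. The F test within iPSC gave an unadjusted p of 0.000947 (adjusted p = 0.225). Igf2, not past the threshold, had a span of 0.59 with its lowest value in number 3 (adjusted p = 0.0978).

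**Figure D4:**
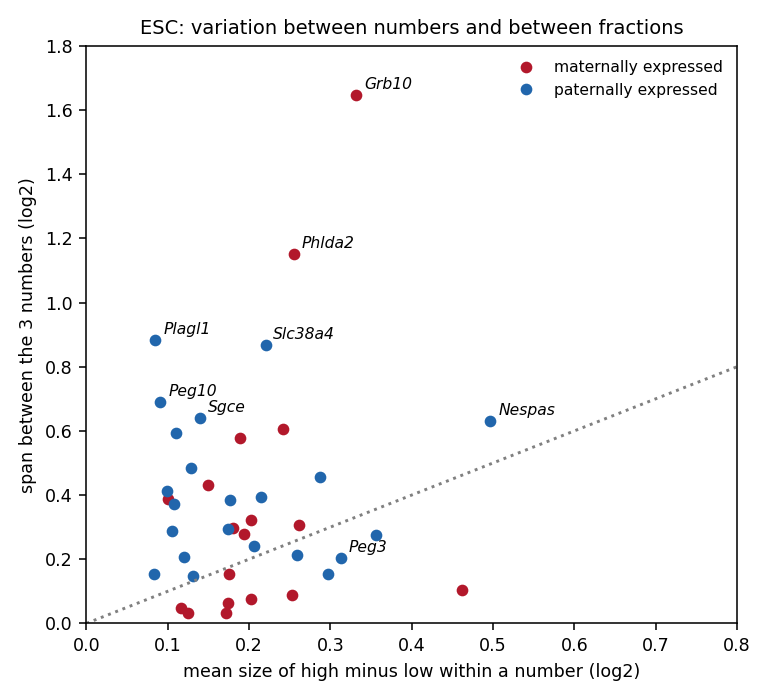
Span between the means of the 3 ESC numbers (vertical axis, log2 units) against the mean size of high minus low within a number (horizontal axis, log2 units) for the 40 members, coloured by the expressed parental copy. The dotted line marks equal values; Grb10 (1.65), Phlda2 (1.15), Plagl1 (0.88), Slc38a4 (0.87) and Peg10 (0.69) have the largest spans.

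The median span between ESC numbers was 0.30 over the members and 0.21 over all probe sets. In iPSC it was 0.29 against 0.19. The wider spread in ESC was not particular to the members. Over 7 long transcripts of the Dlk1-Dio3 domain the median ESC span was 0.44, and over 46 further imprinted genes 0.22. No member passed the F test within iPSC, against 3 probe sets (0.0119%), and 9 of 40 (22.5%) had an unadjusted p under 0.05, against 9.78%. In a joint test of both cell types, Grb10, Phlda2 and Plagl1 passed, 3 of 40 (7.5%), against 0.52%.

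The adjusted calls changed with the arrays left out. Without both arrays of ESC number 2, 0 of 40 members and 0 of 25206 probe sets passed. The spans of Plagl1 (0.88) and Slc38a4 (0.87) lie between numbers 3 and 4 and stayed as they were: the unadjusted p of Plagl1 was 5.84e-05 in that limma fit, against 3.91e-05 with all arrays, and that of Slc38a4 0.000145 against 0.000572, while the adjusted p-values were 0.127 and 0.149. The unadjusted p of Phlda2, which stands high in number 2, was 0.985 there. Without number 3, Phlda2 alone of the members passed, among 245 probe sets (0.972%), and without number 4, Grb10, Phlda2 and Plagl1 did, among 86 (0.341%). Without only the low or only the high array of ESC number 2, 0 members passed, and 15 or 5 probe sets did. With the ESC arrays alone in the fit, 0 members and 35 probe sets passed.

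Other genes also differed between the ESC numbers. Of the 302 probe sets called, 151 were lowest in number 2, 76 in number 3 and 75 in number 4. Neural markers (8 measured) averaged 3.80, 3.50 and 3.43 in numbers 2, 3 and 4, and extraembryonic endoderm markers 3.75, 3.66 and 3.57. Pluripotency markers averaged 8.29, 8.44 and 8.49, fibroblast markers 3.10, 3.08 and 3.14, and trophoblast markers 3.60, 3.62 and 3.67. Of the 9 trophoblast markers measured, 1 was called between the ESC numbers, against 1.2% of probe sets. It was Eomes, at 4.42, 4.82 and 5.44 in numbers 2, 3 and 4 (moderated F test, adjusted p = 0.0292). Median deviations of the chromosomes that carry the 5 called members were between -0.01 and 0.02, against -0.07 to 0.10 over all chromosomes. The part of these differences in the spans of the imprinted genes was not tested.

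Genes that set or keep imprints were read from a list of 30, all measured. Between iPSC and ESC, 4 of the 30 passed, 2 higher and 2 lower in iPSC, against 2.87% of probe sets. That fit counts the low and high arrays of 1 number as separate. With the block, the limma adjusted p-values were 0.00195 (Tet3), 0.0118 (Dppa3), 0.0208 (Dnmt3l) and 0.0234 (Dnmt3a). With 1 mean per number and cell type 0.25% of probe sets passed, and these 4 are not given here for that setting. Dnmt3l, the cofactor of the de novo methyltransferases, was higher in iPSC by 1.63 ± 0.31 (SE, limma adjusted p = 0.0160), and Tet3, an oxidase of methylated cytosine, by 1.04 ± 0.11 (adjusted p = 0.000685). Dppa3, which shields methylation in the early embryo, was lower in iPSC by 1.20 on the log2 scale (difference -1.20 ± 0.20, adjusted p = 0.00687), and the de novo methyltransferase Dnmt3a had a difference of -0.55 ± 0.10 (adjusted p = 0.0120).

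Each of these 4 is shown by array. Dnmt3l was at 3.68 to 4.88 in the 6 ESC arrays and at 4.85 to 6.54 in the 6 iPSC arrays, which overlap through iPSC number 3. Its span between numbers was 1.12 in ESC and 1.33 in iPSC, against its difference of 1.63 between cell types. Tet3 was at 4.37 to 4.92 in ESC and 5.25 to 5.88 in iPSC, with a clear gap. Dppa3 was at 4.58 to 5.91 in ESC and 3.63 to 4.69 in iPSC, where only the high array of iPSC number 3 reached the ESC range. Dnmt3a was at 6.55 to 6.98 in ESC and 5.99 to 6.49 in iPSC, without overlap.

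**Figure D5:**
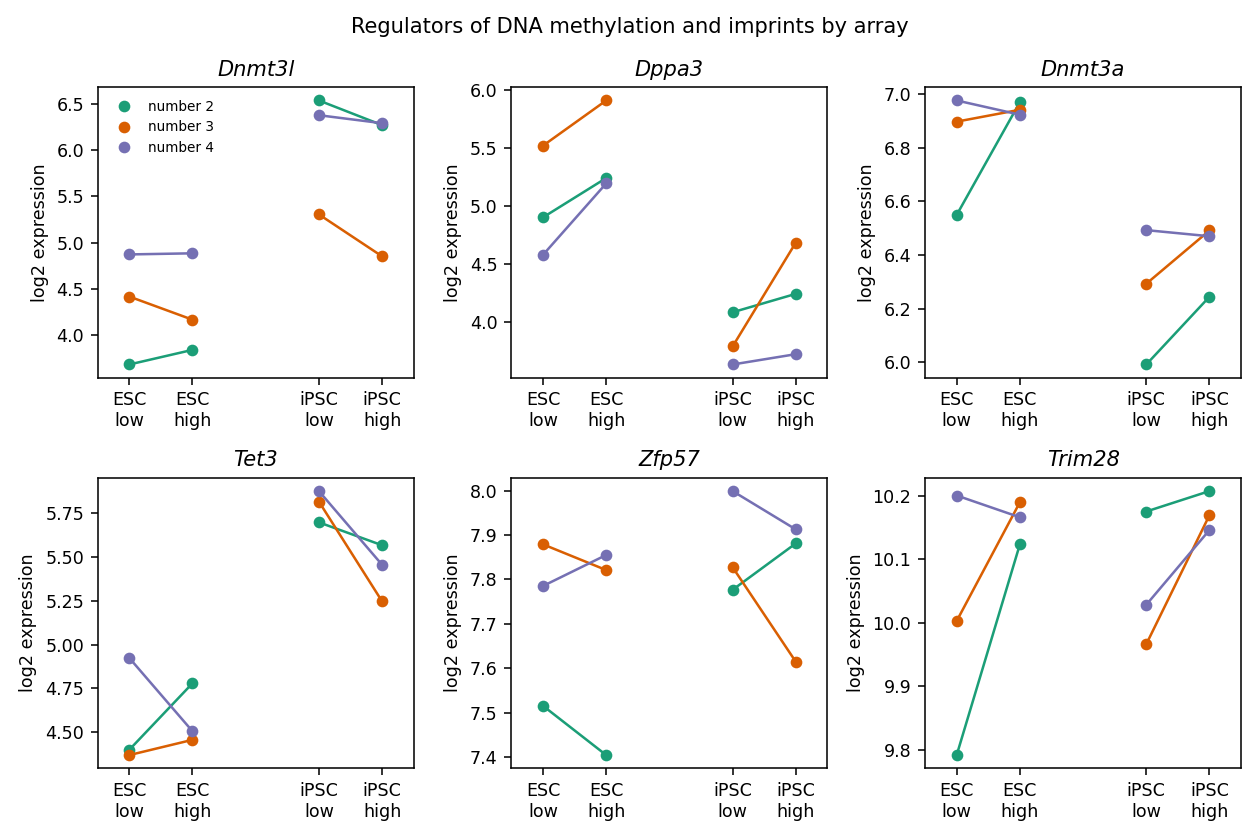
Log2 expression (vertical axes, different ranges) of 6 regulators of DNA methylation and imprints in each of the 12 arrays, with lines that join the low and the high array of 1 number. Tet3 is higher and Dnmt3a lower in every iPSC array than in every ESC array, while Zfp57 and Trim28 overlap.

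The core keepers of imprints did not pass. Zfp57 differed by 0.13 ± 0.10 (adjusted p = 0.643), Trim28 by 0.04 ± 0.08 (adjusted p = 0.891), Dnmt1 by 0.01 ± 0.06 (adjusted p = 0.979) and Uhrf1, the partner of DNMT1, by 0.21 ± 0.06 (adjusted p = 0.0893). Between the fractions 0 of the 30 passed in limma over both cell types, against 2.5% of probe sets, and 5 had an unadjusted p under 0.05, against 15.6%. Between ESC numbers 2 of the 30 passed, against 1.2%: Dnmt3l, at 3.76, 4.29 and 4.88 in numbers 2, 3 and 4, and Tet2, another methylcytosine oxidase, at 7.88, 8.51 and 8.51.

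A further 50 genes reported as imprinted were read in the same way, of which 46 were measured. Between iPSC and ESC 2 of the 46 passed, against 2.87% of probe sets, both higher in iPSC: Atp10a, a lipid flippase, by 0.86 ± 0.16 (adjusted p = 0.0112, and 0.0172 with the block), and Gab1, a docking protein of receptor kinases, by 0.35 ± 0.06 (adjusted p = 0.00713, and 0.016 with the block). In the Dlk1-Dio3 domain 2 of 7 long transcripts passed, against the same 2.87%, both maternal noncoding RNAs lower in iPSC: Rian by -0.43 ± 0.07 (adjusted p = 0.00581, and 0.0118 with the block) and Meg3 by -0.37 ± 0.09 (adjusted p = 0.0396, and 0.0701 with the block). Values with 1 mean per number and cell type are not given here for these genes. Between ESC numbers 2 of the 46 and 0 of the 7 passed, against 1.2% of probe sets. At an unadjusted p under 0.05 in that F test there were 9 of the 46 (19.6%) and 4 of the 7 (57.1%), against 14.3%. In numbers 2, 3 and 4, Ddc was at 5.07, 5.59 and 6.14 (moderated F test, adjusted p = 0.0294). Adam23 was at 7.88, 8.52 and 8.69 (adjusted p = 0.0331).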

How the data were processed

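The authors deposited log2 expression values of 12 arrays, with 25206 probe sets each. The tools were RMA in affy 1.36.1 under R 2.15.1, per the submitters' processing notes. RMA makes the distributions of the arrays alike, so a shift shared by most genes is largely removed. The medians of the deposited arrays still ran from 3.51 (iPSC low number 4) to 3.61 (iPSC high number 4). For chip definition and genome build, the sources used here give nothing. The number of arrays limits the precision.

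The values as deposited were fitted with limma 3.58.1 (R 4.3.3), with 1 mean per group over all arrays and no intensity trend in the moderated variances. P-values were adjusted by Benjamini-Hochberg over all probe sets of a comparison. The threshold was an adjusted p of 0.05. The fits were run on simulated data with independent noise in each array. Those data held no effect shared by arrays of 1 number, so they do not show how the fits behave with paired arrays. Members and lists were chosen with earlier results of these data known. By rule, values in every array were to be given for members past the threshold, or with non-overlapping cell types and a difference of at least 1; no member met it, so the genes shown by array, the printed promoters, and the members tested by number were chosen after values were seen. List genes named are those past the threshold and those known to keep imprints.

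Low and high arrays of one number and cell type were treated as pairs, since residuals of equal numbers correlated above 0.1 in all 6 pairs, an inference from the data. Some arrays that shared neither cell type nor number also correlated above 0.1, so the pairing is less sure in iPSC. The block was fixed for high against low and random (duplicateCorrelation, consensus 0.192) for iPSC against ESC. Alternatives were this block, median centring, removal of dim probe sets, an intensity trend, robust variances, only the groups compared, 1 mean per number and cell type, and leaving out arrays.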

Additional observations from a re-analysis of the deposited data

Results flagged for a closer look

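In 2 members every ESC pair moved one way between the fractions and every iPSC pair the other. For H13, a signal peptide peptidase, high minus low was 0.16, 0.18 and 0.11 in the ESC pairs and -0.06, -0.11 and -0.17 in the iPSC pairs. The difference of effects (iPSC minus ESC) was -0.26 ± 0.19 (SE, limma adjusted p = 1). For Zdbf2, a paternally expressed zinc finger gene, it was 0.17, 0.04 and 0.18 in the ESC pairs and -0.05, -0.15 and -0.07 in the iPSC pairs, a difference of effects of -0.22 ± 0.20 (limma adjusted p = 1). Such opposite signs stood in 2 of 40 members (5%) and in 666 of 25206 probe sets (2.64%).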

How the results depend on the processing

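Every main comparison between cell types or fractions called 0 of 40 members. For high minus low over both cell types, the replicate block called 2 members (Nespas and Peg3, against 3.73% of all probe sets), median centring 1 (Peg3, against 2.89% of all probe sets), removal of dim probe sets 2 of 38 tested (3.7%) and an intensity trend 2 (2.93%, both times Peg3 and Ppp1r9a). For iPSC minus ESC over both fractions, removal of dim probe sets and an intensity trend each called 2 (Sgce and Slc22a18), against 4.55% and 3.81% of probe sets. The replicate block changed no other member's call. For the numbers within ESC, 5 members in the main test (1.2% of probe sets), median centring gave 4 (1.21%), robust variances 4 (1.09%), an intensity trend 7 (3.61%), removal of dim probe sets 5 (2.23%) and the ESC arrays alone 0 (0.139%). Leaving out arrays gave 0 to 2 members for iPSC minus ESC over both fractions, against 1.4% to 2.78% of probe sets. It gave 0 to 1 for high minus low over both cell types (1.02% to 2.76%) and 0 to 3 for the numbers within ESC (0% to 0.972%). It gave 0 in the other comparisons. In these the cause was not tested. Peg3 passed between fractions without iPSC low replicate 2 (adjusted p = 0.0325), and Nespas without ESC high replicate 4 (0.0248) or iPSC high replicate 2 (0.0304). Slc22a18 passed between cell types without iPSC low replicate 2 (adjusted p = 0.0410) and likewise without iPSC high replicate 3 (0.0348), and Sgce without ESC low replicate 3 (0.0251) or ESC high replicate 3 (0.0249). With 1 mean per number and cell type, 0 members passed between cell types, against 0.25% of probe sets. Median centring kept the sign of the median of maternally and of paternally expressed members in all 7 comparisons. The settings that leave out both arrays of an ESC number were chosen after seeing the data. With 3 arrays a group and no detection calls, small differences of dim members cannot be separated from background.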
